A study of Mus musculus with 2 samples.

Results

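The low-oxygen response and glycolysis genes are 39 named mouse genes, taken here as 4 groups: 6 oxygen-sensing genes, 14 glycolytic enzymes, 6 regulators and transporters of glycolysis, and 13 other genes known to respond to low oxygen. A probe set, the group of short probes that reads 1 transcript on an Affymetrix array, was assigned to a gene only if the platform annotation gave that gene and no other. This left 36 of the 39 genes, read by 82 of the 45101 probe sets, out of 18194 genes with a probe set of their own. Gpi1 and Eno1 have no such probe set in the annotation used here, and the probe sets of Bnip3l also name a second gene. Each gene's probe set was chosen by deposited signal, as the one with the highest mean over both arrays. The list itself was drawn up with ratios from these same arrays in view, so the values below describe the genes and test nothing.

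RNA came from macrophages of C57BL/6J mouse fetal liver at E15.5, sorted as cells positive for both Mac-1 and F4/80. There was 1 array of c-Maf-/- embryos (c-Maf KO) and 1 array of c-Maf+/+ embryos (wild type). The labels do not say how many embryos went into each. The c-Maf protein, encoded by Maf, is a transcription factor of the basic leucine zipper family, and the study searched for genes that are lower in macrophages that lack it. With 1 array per genotype there is no replicate error, and no difference below has a p-value.

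Cells sense oxygen through prolyl hydroxylases, which use oxygen to mark the alpha subunits of hypoxia-inducible factor (HIF) for destruction by the von Hippel-Lindau protein. When oxygen is low the marks are not made, the alpha subunit pairs with ARNT, and the pair binds short DNA elements near its target genes. Many of those targets encode glucose transporters and enzymes of glycolysis, the pathway that makes ATP from glucose without oxygen, and the fetal liver is a tissue in which these genes are used by blood-forming cells and hepatoblasts as well as by macrophages.

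The HIF core element is ACGTG or GCGTG, which reads CACGT or CACGC on the opposite strand. Promoter windows of 300 bases, from 250 before to 50 after the most upstream listed start, were taken from RefSeq (GRCm38.p6). They are shown for 4 genes that were higher on the c-Maf KO array (Bnip3, Egln3, Egln1 and Ldha) and 2 that were within 2-fold (Slc2a1, with the element, and Tpi1, without it). The sequences run 5′ to 3′ on the gene's strand, and capitals mark the element on either strand.
Bnip3, chr7:138909457-138909756, minus strand: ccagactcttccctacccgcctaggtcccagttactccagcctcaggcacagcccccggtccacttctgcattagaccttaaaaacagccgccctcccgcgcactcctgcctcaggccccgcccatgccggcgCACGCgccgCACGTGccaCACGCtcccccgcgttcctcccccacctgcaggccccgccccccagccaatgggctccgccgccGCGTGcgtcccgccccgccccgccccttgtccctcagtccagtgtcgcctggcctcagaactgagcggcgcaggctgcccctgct
Egln3, chr12:54203825-54204124, minus strand: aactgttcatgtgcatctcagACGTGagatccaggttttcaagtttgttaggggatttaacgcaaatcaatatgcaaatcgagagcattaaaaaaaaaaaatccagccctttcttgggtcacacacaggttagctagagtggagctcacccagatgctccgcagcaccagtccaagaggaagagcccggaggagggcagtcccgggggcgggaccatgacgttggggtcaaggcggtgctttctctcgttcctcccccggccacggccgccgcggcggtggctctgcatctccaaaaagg
Egln1, chr8:124949205-124949504, minus strand: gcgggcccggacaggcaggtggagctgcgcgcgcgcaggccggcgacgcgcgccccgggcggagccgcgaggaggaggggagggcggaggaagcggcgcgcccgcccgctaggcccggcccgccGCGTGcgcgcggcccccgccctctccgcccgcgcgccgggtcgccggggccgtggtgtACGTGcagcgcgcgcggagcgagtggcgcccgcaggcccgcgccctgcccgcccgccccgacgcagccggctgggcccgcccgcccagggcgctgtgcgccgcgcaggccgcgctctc
Ldha, chr7:46845554-46845853, plus strand: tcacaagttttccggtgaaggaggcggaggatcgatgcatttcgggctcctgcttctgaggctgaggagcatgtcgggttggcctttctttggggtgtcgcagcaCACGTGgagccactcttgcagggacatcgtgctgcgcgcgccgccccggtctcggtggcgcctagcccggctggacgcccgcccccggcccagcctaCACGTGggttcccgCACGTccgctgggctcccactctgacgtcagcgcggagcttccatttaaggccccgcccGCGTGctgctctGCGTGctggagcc
Slc2a1, chr4:119108495-119108794, plus strand: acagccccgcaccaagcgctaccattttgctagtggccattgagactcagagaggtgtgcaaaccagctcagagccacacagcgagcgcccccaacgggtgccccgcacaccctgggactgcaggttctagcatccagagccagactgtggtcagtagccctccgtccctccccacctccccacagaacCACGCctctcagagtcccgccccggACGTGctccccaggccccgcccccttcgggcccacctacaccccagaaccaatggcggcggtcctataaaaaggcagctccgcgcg
Tpi1, chr6:124814109-124814408, minus strand: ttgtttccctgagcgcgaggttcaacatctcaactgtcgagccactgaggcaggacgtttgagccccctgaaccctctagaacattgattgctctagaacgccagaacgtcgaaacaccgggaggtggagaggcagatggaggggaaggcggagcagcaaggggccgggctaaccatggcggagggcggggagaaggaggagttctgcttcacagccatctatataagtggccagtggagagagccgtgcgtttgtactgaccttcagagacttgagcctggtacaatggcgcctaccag

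Of the 34 genes with a window in the table, 26 held the element, which is 76.5%, against 59.6% of the 10702 genes that were measured on the arrays and had a window. The element contains the dinucleotide CG, and the median number of CG in the window was 24 for the 34 genes and 19 for all measured genes. Among the 3966 measured genes with at least 24 CG, 76.1% held the element. Their median was 31 CG, so they are richer in CG than the 34 genes and not a matched set. How far CG content enters the share of the 34 genes was not tested. It was present in 10 of 12 genes that were at least 2-fold higher on the c-Maf KO array and in 15 of 20 that were within 2-fold, or 83.3% and 75%. Over all measured genes with a window, it was present in 56% of the 891 genes at least 2-fold higher and in 60% of the other 9811, the opposite order. Bnip3 had 4 separate stretches, 1 of them the palindrome CACGTG, which carries ACGTG on both strands and was counted once. Ldha had 5 stretches, of which 2 were CACGTG. Egln1 and Slc2a1 had 2 each, Egln3 had 1 and Tpi1 had 0. Egln3, whose ratio ranked 46 of 13291 genes, thus had fewer than Slc2a1, which was within 2-fold. Epas1, Slc2a3, Bnip3l, Ndrg1 and Zfp395 had no entry. A match is a stretch of letters and does not show that a factor was bound.

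The c-Maf KO array was dimmer than the wild-type array. The median over all probe sets was 2.98 in c-Maf KO against 4.73 in wild type, and the median gene above the floor on both arrays had a log2 ratio of -0.93 as deposited. Ratios are therefore given after quantile normalization, which gives both arrays the same distribution of signals, and are called level-adjusted; the median of all 13291 genes measured is 0.01 on that scale. Signals are as deposited, and a gene below the floor (3.75 level-adjusted, the median of all values) on 1 array gives a limit instead of a ratio, which is marked by the words at least. Bright probe sets that read the same gene scattered by 0.69 log2 units around their gene's mean (SD, 3867 probe sets of 1593 genes). Only probe sets above the floor on both arrays, with the brighter signal at least 4 times the floor, entered this SD. It was read on these 2 arrays and leaves out the variation between embryos, sorts and arrays. For Gapdh, signal at the 3′ end over that at the 5′ end was 0.90 in c-Maf KO and 1.83 in wild type, and for Actb it was 6.05 in c-Maf KO and 13.3 in wild type, so the position of a probe set in its transcript could enter its ratio. Maf itself had signals of 0.219 on the c-Maf KO array and 47.6 on the wild-type array on the probe set chosen by the same rule, at least 8.51-fold lower. Of its 5 other probe sets, 1 was at least 3.90-fold lower, 3 lay near the floor with log2 ratios from -0.21 to 0.07, and 1 was below the floor on both arrays. Where they lie relative to the deletion is not stated.

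The oxygen-sensing and glycolysis genes were shifted towards higher ratios, and the shift was uneven. All 36 genes with a probe set reached the floor on 1 array or both, 31 of them on both. On the level-adjusted scale, 12 of the 36 were at least 2-fold higher on the c-Maf KO array, where 8.35% of all genes were, and 0 were at least 2-fold lower, where 9.05% of all genes were. The median log2 ratio of the 36 genes was 0.57. Among genes whose brighter signal was at least 4 times the floor, 10 of 25 were higher, against 8.64% of all such genes, and 0 were lower, against 12.0%. In deposited signal, where the whole array was dimmer, 12 of 31 genes measured on both arrays were brighter on the c-Maf KO array, against 11.8% of all genes. The direction rests on how the arrays are brought to a common level: as deposited, 2 of 35 members were at least 2-fold higher, against 1.19% of all genes, and 8 were at least 2-fold lower, against 39.7%.

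**Figure D1:**
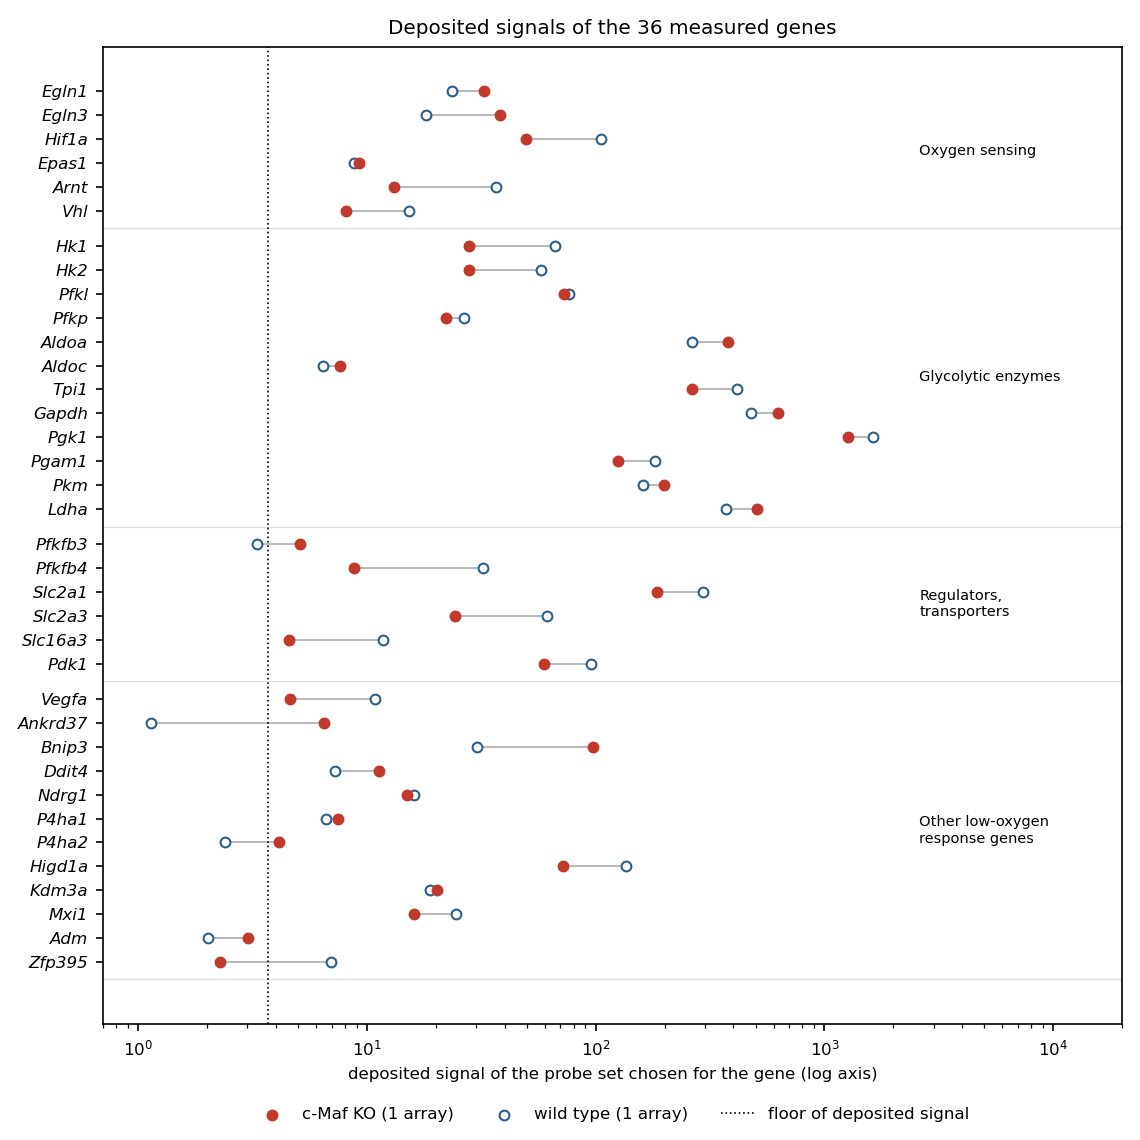
Deposited signal (horizontal, log axis) of the chosen probe set of each of the 36 genes, with the c-Maf KO array as filled points and the wild-type array as open points; the dotted line is the floor of 3.70 on deposited signal. Bnip3, Egln3, Egln1, Aldoa, Gapdh, Pkm and Ldha lie to the right of their wild-type point, whereas Hif1a, Hk1, Pfkfb4 and Slc2a3 lie to the left.

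Markers of other cells also differed between the arrays. For the counts that follow, 8.35% of all genes were at least 2-fold higher and 9.05% lower. For the summed signals, the sum over all genes was 383817 on the c-Maf KO array and 780052 on the wild-type array. Single genes carry much of some sums. The erythroid Hbb-y had 4650 in c-Maf KO and 7061 in wild type. Among granulocyte markers, S100a8 had 3317 in c-Maf KO and 4717 in wild type, and S100a9 had 3812 in c-Maf KO and 4926 in wild type. All 9 measured markers of hepatoblasts, the fetal liver's epithelial cells, were at least 2-fold higher on the c-Maf KO array on their chosen probe sets, with a median log2 ratio of 1.74 and Apoa1 (2.67), Serpina1b (2.38), Alb (2.27) and Ttr (2.06) in front. The 4 measured Apoa1 probe sets ran from 0.62 to 2.67 and the 4 of Afp from 0.50 to 2.21, and Ahsg was below the floor in wild type. The summed signal of the 10 listed hepatoblast markers was 593 on the c-Maf KO array and 374 on the wild-type array, and Fgb was below the floor on both. Of 11 measured erythroid markers 1 was higher and 0 lower, with a median of 0.24 and summed signals of 5424 on the c-Maf KO array and 8587 on the wild-type array; Klf1 (1.53) was the one at least 2-fold higher, followed by Epor (0.93), and the globin genes Hbb-y (-0.58) and Hbb-bh1 (-0.46) were the lowest. Granulocyte markers had a median of -0.30, with 2 of 10 lower, Camp (-1.62) and Mpo (-1.19), and with Ltf at -0.86 and Mmp8 at 0.65. With ratios centred by a smooth curve on signal instead, Camp was at -1.36 and Mpo at -0.80, under 2-fold. The summed signals of the granulocyte markers were 8658 in c-Maf KO and 15016 in wild type. Megakaryocyte markers had a median of 0.20, with 1 of 5 lower (Gp9, -1.55 or below), and summed signals of 93.0 in c-Maf KO and 163 in wild type; Ppbp (0.96) and Itga2b (0.95) were the highest, beside Gp1bb and Pf4 (0.20 each). Macrophage markers had a median of 0.17, with 3 of 12 higher (Cd68, 1.43; Siglec1, 1.29; Fcgr1, 1.21) and 1 lower (Vcam1, -1.76), and summed signals of 725 in c-Maf KO and 1460 in wild type. Both sort markers were read on both arrays: Adgre1, encoding F4/80, at 48.1 in c-Maf KO and 71.4 in wild type, and Itgam, encoding the alpha chain of Mac-1, near the floor at 3.94 in c-Maf KO and 5.76 in wild type. The part of hepatoblast or other RNA in the ratios below was not tested, and fewer cells of a type cannot be told apart from less RNA per cell in bulk RNA.

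Among the 6 oxygen-sensing genes, Egln3 and Egln1 were past 2-fold on their chosen probe sets, Egln1 on 1 of its 2 probe sets. Egln3, an inducible prolyl hydroxylase that marks HIF alpha subunits, had a signal of 38.2 on the c-Maf KO array and 18.2 on the wild-type array, 4.47-fold higher after level adjustment and 2.10-fold as deposited. Egln1, encoding the main prolyl hydroxylase of the HIF system, had 32.5 in c-Maf KO and 23.6 in wild type, 2.99-fold higher after level adjustment. Both genes are themselves known targets of HIF. Each had a second probe set: that of Egln3 read 9.90 on the c-Maf KO array and 13.2 on the wild-type array, a level-adjusted log2 ratio of 0.55 against 2.16 for the first, and that of Egln1 read 3.68 in c-Maf KO and 6.52 in wild type, a ratio of -0.12 against 1.58. The gap between the probe sets of either gene is larger than the 0.69 spread, but that spread comes from probe sets brighter than these second ones. The size of the Egln3 difference, and the direction as well as the size for Egln1, thus depend on the probe set. The mean over its probe sets left Egln1 at 0.73, under 2-fold.

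The HIF subunits and Vhl were within 2-fold on their chosen probe sets. Hif1a, the oxygen-regulated alpha subunit found in most cells, had 49.5 on the c-Maf KO array and 105 on the wild-type array, a level-adjusted log2 ratio of 0.07, and its 2 other measured probe sets were at -0.67 and at -0.21 or below. Epas1, encoding the second alpha subunit, had 9.19 in c-Maf KO and 8.77 in wild type, 1.95-fold higher and just short of 2-fold. Arnt, the partner subunit, had 13.2 in c-Maf KO and 36.8 in wild type, a ratio of -0.38, and its 3 other measured probe sets ran from -0.59 to 0.91. Vhl, which recruits HIF alpha to a ubiquitin ligase, had 8.13 in c-Maf KO and 15.3 in wild type, a ratio of 0.06. A second Vhl probe set, chosen here after its value was seen, read 9.82 on the c-Maf KO array and was below the floor in wild type at 0.562, a log2 ratio of at least 1.90. The 6 genes had a median ratio of 0.52 and ran from -0.38 to 2.16. On the chosen probe sets 2 were at least 2-fold higher and 0 lower, against 8.35% and 9.05% of all genes.

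Other genes of the oxygen pathway were centred near 0. Of 11 measured, 0 were at least 2-fold higher and 1 was lower, against 8.35% and 9.05% of all genes, with a median of 0.12. Crebbp, a coactivator that HIF recruits, was the lower one, with 3.48 on the c-Maf KO array and 20.9 on the wild-type array (-1.72). The 3.48 lay under the deposited floor of 3.70, and the 3 measured Crebbp probe sets ran from -1.72 to -0.39. Os9, an endoplasmic reticulum lectin that has also been linked to HIF turnover, was at -0.79 (its second probe set at 0.18), and Hif1an, the asparagine hydroxylase that blocks coactivator binding, was at -0.59. A second probe set of Hif1an was at 0.87. Cul2, the scaffold of the ligase that holds the von Hippel-Lindau protein, was at 0.55. Egln2, the remaining prolyl hydroxylase gene of the family, had 24.5 on the c-Maf KO array and 49.3 on the wild-type array, a ratio of 0.14.

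**Figure D2:**
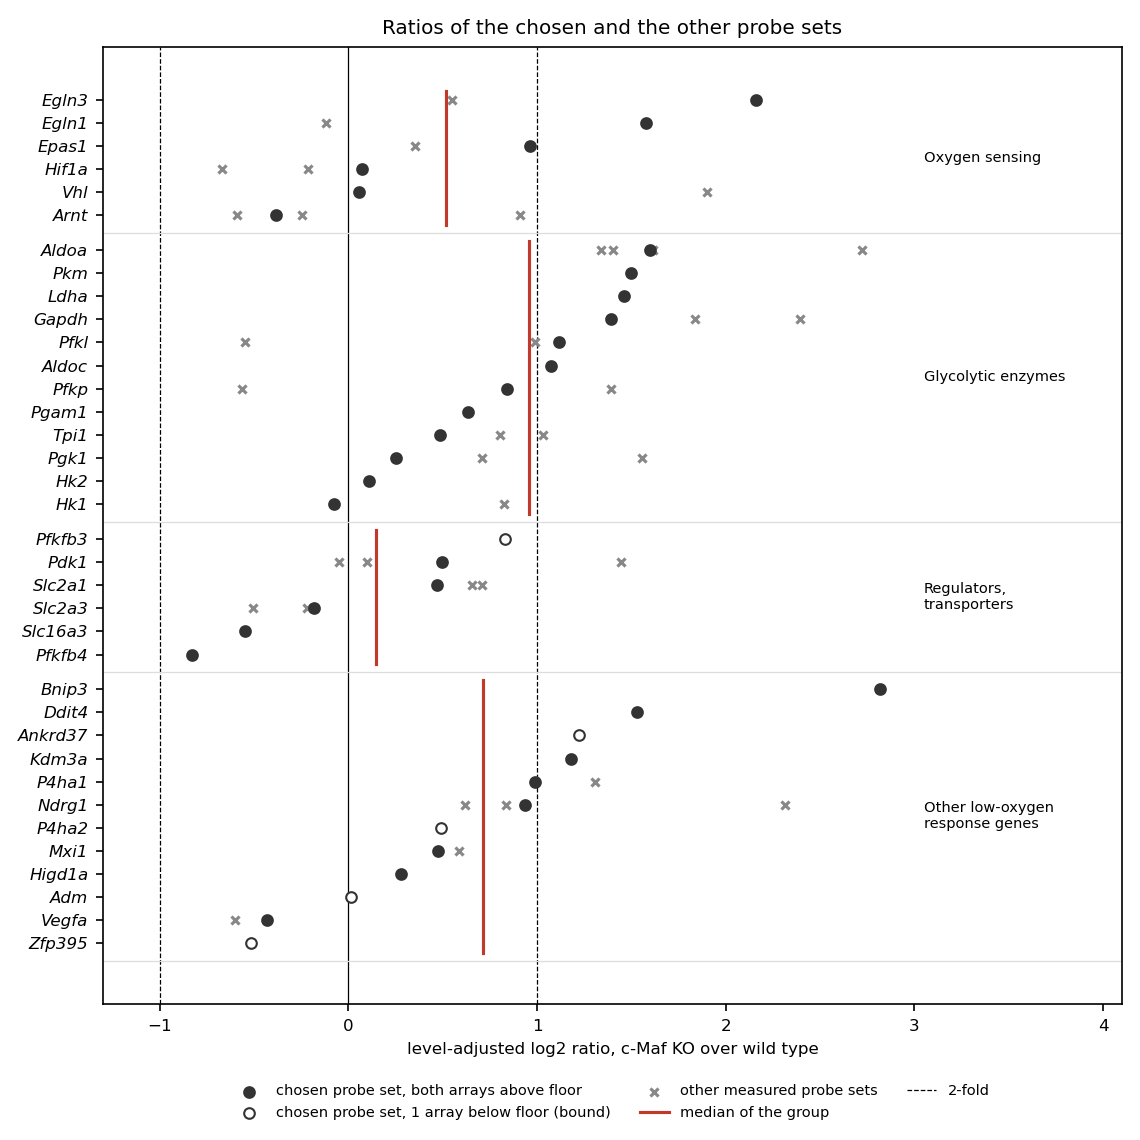
Level-adjusted log2 ratio of c-Maf KO over wild type for each gene, ordered within its group; points are the chosen probe sets (open where 1 array was below the floor), crosses the other measured probe sets, red lines the group medians and dashed lines 2-fold. Among the chosen probe sets, Bnip3 (2.82) and Egln3 (2.16) are farthest to the right. The crosses of several genes lie far from their points, among them Egln3, Egln1, Vhl, Pfkl, Pgk1 and Ndrg1.

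Glycolytic enzymes had a level-adjusted median of 0.96. Of 12 measured, 6 were at least 2-fold higher and 0 lower, against 8.35% and 9.05% of all genes. Their ratios ran from -0.08 for Hk1 to 1.60 for Aldoa. As deposited the median was -0.16. Its order against the other low-oxygen response genes, at 0.71, turned with the processing, for example with means over probe sets (0.81 against 0.84) and with bright genes only (0.84 against 1.06). The group held 9 of its 12 genes in the brightest of 5 equal signal bins of all genes, where the median ratio was -0.11. On the same arrays the hepatoblast markers had a median of 1.74.

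The first steps, which trap glucose and commit it to the pathway, were mixed. Hk1, the hexokinase of most cells, had 27.8 on the c-Maf KO array and 66.0 on the wild-type array, a level-adjusted log2 ratio of -0.08, while its second probe set was at 0.83 or more. Hk2, the hexokinase induced by low oxygen, had 27.8 in c-Maf KO and 57.7 in wild type, a ratio of 0.11. Both hexokinase genes were thus near 0 on their chosen probe sets. Pfkl, the liver-type phosphofructokinase of the committing step, had 72.8 in c-Maf KO and 76.1 in wild type, 2.17-fold higher after level adjustment and nearly level as deposited. A second Pfkl probe set was at 0.99 and the last at -0.54. Pfkp, the platelet-type phosphofructokinase, had 22.1 in c-Maf KO and 26.5 in wild type, a ratio of 0.84, with its 2 other probe sets at -0.56 and 1.39 (the last a bound).

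The aldolases, which split fructose 1,6-bisphosphate, were both higher. Aldoa, the widely expressed aldolase, had 378 on the c-Maf KO array and 262 on the wild-type array, 3.03-fold higher after level adjustment. All 5 Aldoa probe sets were more than 2-fold higher, from 1.34 to 2.72 in log2 ratio, and all 5 were brighter on the c-Maf KO array as deposited. They share the suffix that marks probes with possible matches to other transcripts. Aldoc, the aldolase best known from brain, had 7.61 in c-Maf KO and 6.40 in wild type and was 2.11-fold higher, just inside the limit. Tpi1, which interconverts the products of aldolase, had 265 in c-Maf KO and 413 in wild type, a ratio of 0.49, and its 2 other probe sets were at 0.80 and 1.03.

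In the steps that yield ATP and lactate, Gapdh, Pkm and Ldha stood higher than Pgk1 and Pgam1. Gapdh, which oxidises glyceraldehyde 3-phosphate, was read only by the manufacturer's 3 control probe sets, along the transcript. Its 3′ probe set had 626 on the c-Maf KO array and 478 on the wild-type array, its middle probe set 715 in c-Maf KO and 382 in wild type, and its 5′ probe set 695 in c-Maf KO and 261 in wild type. All 3 were brighter on the c-Maf KO array, and the level-adjusted log2 ratio was 1.39, 1.84 and 2.39 from 3′ to 5′, so its size depended on the position read. Pkm, encoding the pyruvate kinase of most cells, had 199.6 in c-Maf KO and 161 in wild type, 2.83-fold higher, and Ldha, the lactate dehydrogenase subunit that makes lactate, had 506 in c-Maf KO and 371 in wild type, 2.75-fold higher. Pkm and Ldha were each read by 1 probe set, brighter on the c-Maf KO array as deposited as well. Pgk1, the first ATP-yielding enzyme, had 1268 in c-Maf KO and 1626 in wild type on its chosen probe set, a ratio of 0.25, but its probe set without a suffix had 411 in c-Maf KO and 289 in wild type, a ratio of 1.56. Pgam1, a phosphoglycerate mutase, had 125 in c-Maf KO and 182 in wild type, a ratio of 0.64.

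**Figure D3:**
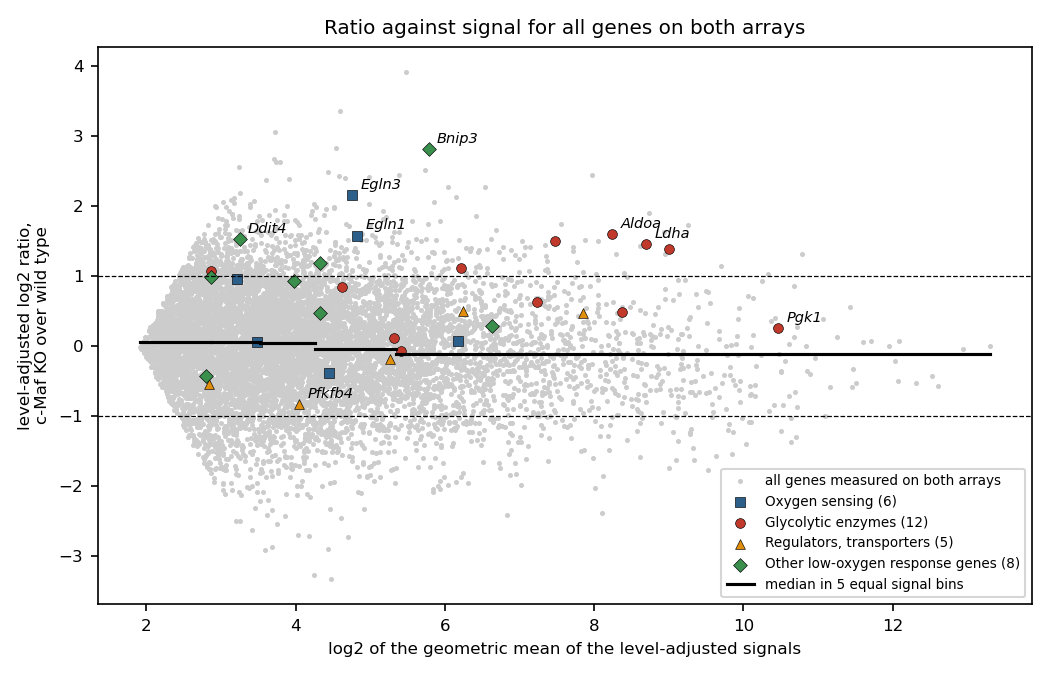
Level-adjusted log2 ratio of c-Maf KO over wild type (vertical) against the log2 geometric mean of the level-adjusted signals (horizontal) for all genes on both arrays (grey), with the 31 genes measured on both arrays coloured by group; black lines are the medians of 5 equal signal bins and dashed lines 2-fold. Most glycolytic enzymes lie among the brightest genes and above the bin median of -0.11, and Bnip3 lies near the upper edge of all genes.

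Regulators and transporters of glycolysis were not higher as a group. Of 6 genes measured, 0 were at least 2-fold higher and 0 lower, against 8.35% and 9.05% of all genes. The median of the 6, at 0.14, became -1.01 as deposited, close to the -0.93 of the median gene. Slc2a1, the glucose transporter of red cells and many other cells, had 185 on the c-Maf KO array and 295 on the wild-type array, a log2 ratio of 0.47, with its 2 other probe sets at 0.66 and 0.71. Slc2a3, a high-affinity glucose transporter of leukocytes and neurons, had 24.2 in c-Maf KO and 61.1 in wild type, a ratio of -0.18, and its other measured probe sets were at -0.22 and at -0.50 or below. Slc16a3, which exports lactate, had 4.57 in c-Maf KO and 11.7 in wild type, a ratio of -0.55. Both of these transporters had ratios below 0 while the lactate-making Ldha was higher. Pfkfb4, which makes the activator of phosphofructokinase, had 8.80 in c-Maf KO and 32.3 in wild type and, at -0.83, was the lowest of the 31 genes measured on both arrays. Pfkfb3, its better known relative induced by low oxygen, had 5.09 in c-Maf KO and was below the floor in wild type at 3.31, at least 1.78-fold higher. Pdk1, a kinase that inhibits pyruvate dehydrogenase, had 59.7 in c-Maf KO and 95.7 in wild type, a ratio of 0.50, and its 3 other probe sets ran from -0.05 to 1.44.

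Isoforms of glycolysis genes outside the 39 lay lower. Of 14 measured, 1 was at least 2-fold higher and 0 lower, against 8.35% and 9.05% of all genes, with a median of -0.17. Pklr, the pyruvate kinase of liver and red cells, was the higher one, with 24.6 on the c-Maf KO array and 20.5 on the wild-type array (1.35), although its 3 probe sets ran from -0.04 to 2.31. Ldhb, the lactate dehydrogenase subunit that favours pyruvate, had 13.2 in c-Maf KO and 49.1 in wild type (-0.78), but its 4 measured probe sets ran from -0.78 to 0.39. Tigar, which lowers the activator of phosphofructokinase, was at -0.74, with a second probe set at 0.75, and Bpgm, the red cell enzyme that makes the regulator of haemoglobin's oxygen affinity, was at -0.73, with its 3 probe sets running from -1.11 to 0.38. Whether the difference between the 2 sets of glycolysis genes exceeds the error cannot be tested with 1 array per genotype.

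Pathways that take carbon away from lactate had medians below 0. Of all genes, 8.35% were at least 2-fold higher and 9.05% lower, and in groups this small the counts below are near those shares. Of 8 measured genes of pyruvate oxidation, 1 was higher and 1 lower, with a median of -0.24. Mpc1, a subunit of the mitochondrial pyruvate carrier, was at 1.05, the pyruvate dehydrogenase subunit genes Pdha1 and Dlat were at 0.85 and -0.62, and Dld, shared by several dehydrogenases, was at 0.68. Pdp2, a phosphatase that activates pyruvate dehydrogenase and the gene that was lower, was below the floor on the c-Maf KO array at 1.25 and had 10.9 in wild type, at least 2.17-fold lower. The 6 measured pentose phosphate genes, which make NADPH and ribose, had a median of -0.46, with 0 higher and 1 lower. Tkt, transketolase, had 757 on the c-Maf KO array and 3135 on the wild-type array (-1.38), Rpia was at -0.73, Pgd at -0.65 and Rpe at 0.83. The second Tkt probe set was at -0.39. With ratios centred by a smooth curve on signal instead, Tkt was at -0.93, under 2-fold, and Pgd at -0.29. On that scale the median was -0.24 for pentose phosphate genes and -0.31 for pyruvate oxidation.

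The other low-oxygen response genes held the highest single ratio. Bnip3, a HIF target whose protein sits on mitochondria and promotes their removal by autophagy, had 97.2 on the c-Maf KO array and 30.3 on the wild-type array. That is 7.05-fold higher after level adjustment and 3.21-fold as deposited, from its only probe set, and it ranked 8 of 13291 genes. Ddit4, an inhibitor of mTOR signalling induced by low oxygen and by other stresses, had 11.2 in c-Maf KO and 7.25 in wild type, 2.89-fold higher. Kdm3a, a histone demethylase and HIF target, had 20.3 in c-Maf KO and 18.9 in wild type, 2.27-fold higher after level adjustment and nearly level as deposited. Ankrd37, an ankyrin repeat gene that responds to HIF, had 6.48 in c-Maf KO and was below the floor in wild type at 1.14, at least 2.34-fold higher. Each of these 4 genes was read by a single probe set.

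P4ha1 and Ndrg1 lay just under 2-fold. P4ha1, encoding the alpha subunit of a collagen prolyl hydroxylase, had 7.45 on the c-Maf KO array and 6.64 on the wild-type array, 1.99-fold higher, and its second probe set had a log2 ratio of at least 1.31. P4ha2, its relative, had 4.11 in c-Maf KO and was below the floor in wild type at 2.39, at least 1.41-fold higher. Ndrg1, a stress-responsive gene of differentiation, had 14.97 in c-Maf KO and 16.1 in wild type, 1.91-fold higher. A second Ndrg1 probe set had 12.9 in c-Maf KO and was below the floor in wild type at 1.66, and the log2 ratios of the 4 measured Ndrg1 probe sets ran from 0.62 to 2.31.

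The remaining genes were nearer to 0 or below it. Mxi1, a partner of MAX that opposes MYC, had 16.05 on the c-Maf KO array and 24.4 on the wild-type array, a log2 ratio of 0.48. Higd1a, a mitochondrial protein induced by low oxygen, had 72.1 in c-Maf KO and 135 in wild type, a ratio of 0.28. Adm, the vasodilator peptide adrenomedullin, had 3.004 in c-Maf KO and 2.01 in wild type, both under the deposited floor, and barely passed the level-adjusted floor on the c-Maf KO array, so it has no usable ratio. Vegfa, the blood vessel growth factor that is the best known target of HIF, had 4.595 in c-Maf KO and 10.8 in wild type, a ratio of -0.43, and its second measured probe set was at -0.60 or below. Zfp395, a zinc finger gene whose human counterpart responds to low oxygen, was below the floor on the c-Maf KO array at 2.28 and had 6.93 in wild type, a ratio of -0.52 or below. The targets were thus not uniform: of 12 measured genes in the group, 4 were at least 2-fold higher, 0 lower and 8 within 2-fold. Among all genes, 8.35% were higher and 9.05% lower. The group had a median of 0.71 and a median of 0.10 as deposited.

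A wider list of low-oxygen targets outside the 39 had 17 ratios above 0 and 6 below. Of 23 measured, 5 were at least 2-fold higher, 2 were lower and 16 within 2-fold, with a median of 0.79. Of all genes, 8.35% were higher and 9.05% lower, so the lower count is near the share of all genes. Fam162a, a mitochondrial protein induced by HIF, had 96.4 on the c-Maf KO array and 44.8 on the wild-type array (2.27), and Stc2, a secreted glycoprotein, had 10.6 in c-Maf KO and 5.46 in wild type (1.81). The 3 measured Stc2 probe sets ran from 0.71 to 1.81. Ak4, a mitochondrial adenylate kinase, was at 1.12, with its 4 measured probe sets running from -0.31 to 1.97. Cxcr4, the receptor that keeps blood cells in their niche, was lower, with 10.8 in c-Maf KO and 76.8 in wild type (-1.73). The other higher genes were Bhlhe40, at least 1.10 and below the floor in wild type, and Gys1, at 1.03. A second Gys1 probe set was at 0.21. The other lower gene was Narf, at -1.58 or below. The HIF target Fam162a was, like Bnip3 and the chosen probe set of Egln3, brighter on the c-Maf KO array as deposited. Among all genes at or above the floor on both arrays, 11.8% were brighter. Cxcr4 and Vegfa were dimmer, as most genes were.

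**Figure D4:**
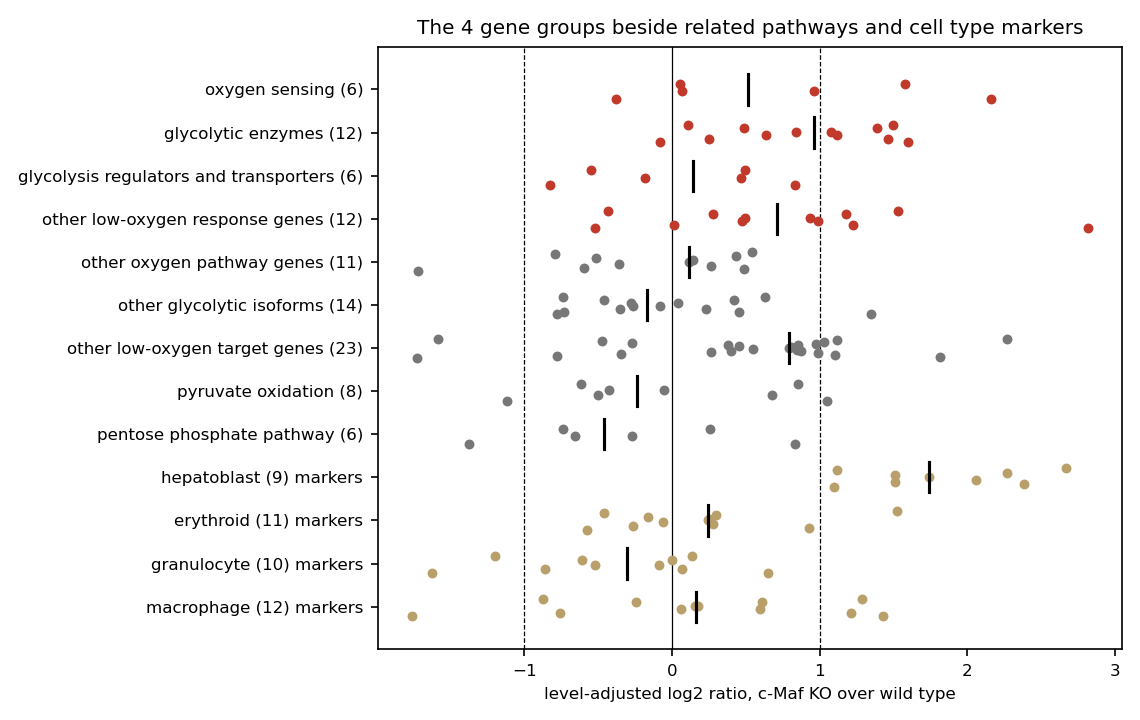
Level-adjusted log2 ratio of c-Maf KO over wild type for every measured gene of the 4 groups (red), of related pathways (grey) and of cell type markers (tan), with the number of genes in brackets, black lines at medians and dashed lines at 2-fold. Glycolytic enzymes (median 0.96) lie above other glycolytic isoforms (-0.17) and the pentose phosphate pathway (-0.46), and hepatoblast markers (1.74) lie above all.

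Probe sets of a gene did not always go together. Of 20 genes with at least 2 measured probe sets, 13 had all of them on the same side of 0 as the chosen one. Among the 12 genes at least 2-fold higher, 7 were read by a single measured probe set. The chosen probe sets of 4 of them (Aldoa, Aldoc, Ldha and Pfkl) carry a suffix, and without suffixed probe sets 8 of the 9 that could still be read were at least 2-fold higher. Of the 5 with several probe sets, Egln3, Aldoa and Gapdh had all their probe sets above 0, and Egln1 and Pfkl did not. Averaging a gene's measured probe sets left 10 of these 12 genes at least 2-fold higher, without Egln1 and Pfkl (0.52), and all 12 above 0. With equal array medians as the scaling, 8 of the 12 were at least 2-fold higher, and Pkm (0.98), Aldoc (0.92), Kdm3a (0.77) and Pfkl (0.60) were not. Centring the ratios by a smooth curve on signal left all 12 at least 2-fold higher, whereas scaling to the hybridisation controls left 1 (Bnip3), and on that scale the median of every group was below 0.

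**Figure D5:**
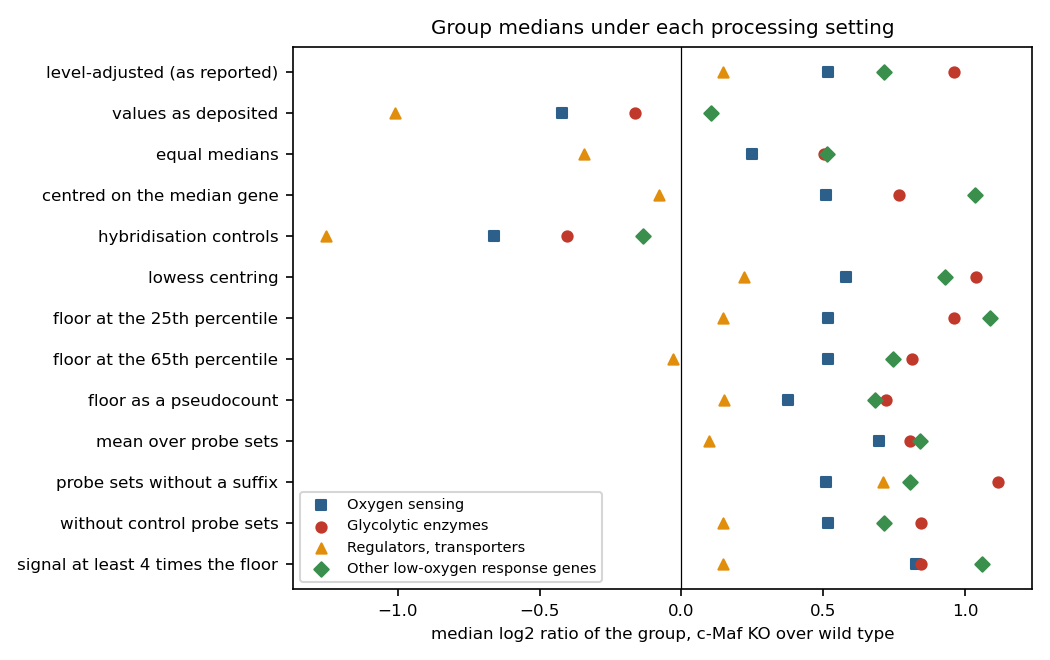
Median log2 ratio of c-Maf KO over wild type (horizontal) of each of the 4 groups under each way of processing the values (rows), with the level-adjusted ratio of the report on top. Regulators and transporters lie left of the other groups in each row but that of probe sets without a suffix, and all 4 medians are below 0 only with scaling to the hybridisation controls.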

How the data were processed

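The deposited values are 1 linear intensity per probe set and array, from 0.0203 to 10606; their summarisation and scaling are not given in the sources used here. Arrays were run by the manufacturer's expression procedure, per the labels' protocols. Detection calls were not used. Of 45101 probe sets, 34958 had 1 gene symbol in the platform annotation, 932 several and 9211 none; 34754 symbols were matched by Entrez identifier to the GRCm38.p6 table. Control probe sets naming 1 gene were kept, since Gapdh has no others.

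Intensities were quantile-normalized on the log2 scale, raised to the 50th percentile of all values (3.75; 3.70 as deposited), and log2 ratios of c-Maf KO over wild type were taken. Genes that reached the floor on either array count as measured (13291), and higher or lower counts are at 2-fold or more. With 1 array per genotype no test was made; the number of arrays limits the precision. The ratio code was checked on simulated arrays with a constant offset between them and little noise, which does not test the choice of scaling. The members and lists were chosen with earlier results of these data known, as were the processing steps. All members are named, and up to 4 genes with the largest absolute ratios on both arrays per other list; Egln2, Pdp2, Gp9, Bhlhe40, Gys1, Narf, the sort markers and single probe sets were named beyond that rule after their values were seen. Python 3.11.15 and statsmodels 0.14.6 were used.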

Additional observations from a re-analysis of the deposited data

How the results depend on the processing

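No paired analysis was possible because each genotype has 1 array, and no array could be left out. Group medians were called changed if they moved by more than the spread of 0.69 between bright probe sets or crossed 0. As deposited, the medians were -0.16 for glycolytic enzymes, -0.42 for oxygen-sensing genes and -1.01 for regulators and transporters, with 2 genes higher and 8 lower. Scaled to the hybridisation controls, they were -0.40, -0.66 and -1.25, and -0.14 for other low-oxygen response genes, with 1 higher and 11 lower. Values as deposited leave the overall dimness of the c-Maf KO array in the ratios. The 18 hybridisation controls were brighter on the c-Maf KO array, with a median log2 ratio of 0.24, so scaling to them lowers the ratios further. Regulators and transporters, at 0.14, also crossed 0 with equal medians (-0.34, with 1 gene lower in all), with centred ratios (-0.0788) and with a floor at the 65th percentile (-0.0288). A 1.5-fold threshold gave 18 higher and 1 lower (2819 and 2786 of 13291 genes), a 3-fold threshold 3 higher and 0 lower (211 and 286). Counts of higher genes were otherwise 8 to 15, against 12, out of 25 to 36 readable genes. Apart from the deposited and hybridisation control scales, calls ended for Pkm, Aldoc, Kdm3a and Pfkl with equal medians, Pfkl with centred ratios (0.87), Egln1 and Pfkl with means over probe sets, Pfkl with probe sets lacking a suffix, Aldoc (0.78) and Ankrd37 (0.52) with a floor at the 65th percentile, and Aldoc (0.71) and Kdm3a (0.99) with the floor as a pseudocount. Pfkl was below 0 as deposited (-0.064), with hybridisation controls (-0.31) and with probe sets lacking a suffix (-0.54), and Kdm3a with hybridisation controls (-0.14). Of 404 values of single genes under the alternatives, 331 moved by less than the spread, 69 by more and 4 changed sign from a call. Genes near the floor were judged by the same spread, although it was read on bright probe sets. The 331 include values that could not move, since keeping bright genes only or dropping control probe sets removes genes without changing the rest. A changed floor likewise leaves genes well above it as they were. Sign changes of genes without a call were judged by size alone, as for Hif1a, at 0.07 as reported and -0.42 with equal medians. Over all genes, counts of higher and lower genes were 1110 and 1203 of 13291 as reported and 631 and 2167 of 13291 with equal medians. Of 13480 genes, they were 161 and 5358 as deposited, 1870 and 1108 with centred ratios, and 1189 and 817 with smooth centring. With hybridisation controls they were 104 and 6728 of 13604. A floor at the 25th percentile gave 2968 and 2969 of 16748, one at the 65th 616 and 796 of 10228, and a pseudocount 963 and 1089 of 18194. Means over probe sets gave 882 and 686 of 13360, probe sets without a suffix 1002 and 1008 of 11579, and bright genes only 480 and 664 of 5554.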
